A study of Mus musculus with 3 samples.

Results

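Cyr61, Ctgf, Thbs1, Amotl2 and Axl are 5 genes often read as outputs of YAP, the transcriptional co-activator held back by the Hippo kinases. They were described here in single cells of mouse lung, as the 5 of 27998 genes in the count matrices whose symbol matched the list, and all 5 were present. The members were chosen by name, with their summed UMI levels per cell class in these same libraries already known, so their levels and ratios are given as a description, with no test. The label holds for a part of the list: Cyr61, Ctgf and Thbs1 encode matricellular proteins, which are secreted into the matrix and signal from it, whereas Amotl2 encodes a junction-associated scaffold of the angiomotin family and Axl a receptor tyrosine kinase.

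Lungs came from C57BL/6 female mice aged 10 to 12 weeks. The control library (NI) is labelled as not irradiated, and the other libraries came from mice given 17 Gy to the thorax under isoflurane with a 4.5 MeV electron accelerator, either at the conventional dose rate (CONV) or in the ultra-high dose rate mode called FLASH. There is 1 library per group, so no difference has a replicate check, and a difference between libraries cannot be told apart from a difference between groups. The number of mice behind each library, the time after irradiation and whether control mice were anaesthetised are not given in the sources used here. Whole lungs were dissociated with enzymes, passed through 100 and 40 µm filters and freed of red cells, and only polyadenylated RNA was captured from the 3′ end.

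When Hippo kinases are inactive, YAP and its relative TAZ (Wwtr1) enter the nucleus and bind TEAD factors, which carry them to DNA. Matrix stiffness, cell stretch and loss of contact favour this state, and Cyr61 and Ctgf are its most used readouts. In lung, CCN proteins (the family of Cyr61 and Ctgf) and thrombospondin 1 are known from fibroblasts, smooth muscle and injured epithelium, while Axl is known from alveolar macrophages, where it helps take up dying cells. Cyr61, Ctgf and Thbs1 also respond to serum response factor and to the stress of tissue dissociation.

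TEAD factors recognise the core GGAATG, read as CATTCC on the other strand, and the promoter windows are shown because each one available carries this core. RefSeq windows on GRCm38.p6, from 250 bases before to 50 bases after the RefSeq start, were matched for 3 of the 5 genes and are printed 5′ to 3′ on the strand of the gene with the TEAD core in capitals. They lie at chr3:145649936-145650235 on the minus strand for Cyr61 (listed as Ccn1), chr9:102717554-102717853 on the plus strand for Amotl2 and chr7:25788684-25788983 on the minus strand for Axl.
Cyr61: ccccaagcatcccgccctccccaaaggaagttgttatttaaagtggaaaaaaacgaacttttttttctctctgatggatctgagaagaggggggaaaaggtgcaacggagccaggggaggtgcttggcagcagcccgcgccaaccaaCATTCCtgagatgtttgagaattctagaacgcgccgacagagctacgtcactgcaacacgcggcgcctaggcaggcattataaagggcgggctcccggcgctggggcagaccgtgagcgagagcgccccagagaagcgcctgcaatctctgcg
Amotl2: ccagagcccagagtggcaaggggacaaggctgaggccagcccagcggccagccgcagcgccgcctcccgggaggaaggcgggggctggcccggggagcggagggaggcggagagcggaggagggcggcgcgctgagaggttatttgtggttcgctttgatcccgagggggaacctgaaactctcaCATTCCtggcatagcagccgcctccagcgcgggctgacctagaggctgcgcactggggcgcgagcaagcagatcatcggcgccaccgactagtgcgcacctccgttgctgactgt
Axl: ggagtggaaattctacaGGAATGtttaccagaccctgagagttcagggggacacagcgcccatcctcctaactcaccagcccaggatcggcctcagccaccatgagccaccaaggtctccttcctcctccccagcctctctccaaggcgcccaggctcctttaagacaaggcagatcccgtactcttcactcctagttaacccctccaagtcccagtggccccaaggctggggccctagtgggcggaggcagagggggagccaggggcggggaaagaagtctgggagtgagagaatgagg
Each window held 1 core, starting 103 bases before the RefSeq start in Cyr61, 65 bases before it in Amotl2 and 233 bases before it in Axl. Across all 32851 mouse windows of the same length, 14.7% held the core on either strand. None of the 3 windows held the AP-1 letters TGANTCA, found in 7.81% of all windows, or a CArG box, the serum response factor motif, found in 1.63%; the motifs were searched on both strands and do not overlap each other. A match is a string of letters and not a bound site. In the GENCODE annotation of mm10 the genes span 3:145646976-145649981 (Cyr61), 10:24595442-24598683 (Ctgf, listed as Ccn2), 2:118111876-118127133 (Thbs1), 9:102716672-102733418 (Amotl2) and 7:25757273-25788705 (Axl). All are protein coding. The Amotl2 window lies inside the GENCODE span of the gene, so its RefSeq start is not the outermost GENCODE start. Thbs1 is overlapped by the antisense gene Gm29233, which had 0 UMIs in the kept cells against 2446 for Thbs1. Ctgf is overlapped by the antisense gene Gm15270, not analysed here, and since strand use in counting is not given, reads of the pair cannot be told apart.

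The 3 libraries held 6662 cell barcodes and 5498902 to 7463259 UMIs (unique molecular identifiers, each standing for 1 captured RNA molecule), and 6344 cells were kept. Median UMIs per cell differed, at 2960 in NI, 2351 in CONV and 1776.5 in FLASH before filtering, so levels are given as UMIs of the gene per 1000000 UMIs of a cell class (CPM) with an exact 95% Poisson interval, and shares of cells are given also after thinning each cell to 1000 UMIs. All intervals cover counting error only. The NI library stood apart in its lymphoid cells: it held 138 thymocyte-like cells and 220 cells of a dividing cluster led by Pbk and Rrm2 with thymocyte markers, against 1 and 0 in CONV and 0 and 0 in FLASH; below, these cells enter only the lymphoid background and the correlations across classes. Surfactant and other AT2 marker transcripts were also found in stromal cells, where the 10 markers summed to 1188 CPM in NI, 3771 in CONV and 2799 in FLASH, with none of the 10 at 0. Among kept cells, 18 barcode sequences occurred in more than 1 library. Clusters were named from marker genes, so each name means "like" that type, and 5 of 26 clusters were left unnamed.

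Background was read from the lymphoid cells, which should not express CCN genes and numbered 1000, 530 and 548 in NI, CONV and FLASH at median depths of 2436, 1834 and 1388 UMIs. Cyr61 there was at 5.09, 4.42 and 10.5 CPM, with a UMI in 1.7%, 0.943% and 1.64% of cells. Ctgf was at 0.898 CPM in NI and had 0 UMIs in CONV and FLASH, where a count of 0 allows a UMI in up to 0.566% and 0.547% of cells, a limit on cells with a UMI and not on cells that express the gene. Thbs1 was at 4.49, 7.95 and 14.0 CPM, and Amotl2 and Axl were at or below 4.19 CPM in every library. Levels of this size in other classes are not read as expression.

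Cyr61 encodes CCN1, a secreted integrin ligand that acts on adhesion, senescence and matrix turnover. Its level was highest in mesenchymal and barrier cells and near background in most leukocytes. Averaged over the 3 libraries, alveolar fibroblast-like cells came first at 926 CPM (range over libraries 436 to 1381) and smooth muscle-like cells next at 920 (494 to 1568), and these 2 ranges overlapped. Capillary-like endothelium followed at 666 (604 to 712), then adventitial fibroblast-like cells at 565 (392 to 696) and an unnamed stromal cluster led by Mmp3 and Gdf10 at 525 (371 to 625), again with overlapping ranges. Ciliated-like cells were at 341 (246 to 462), club-like cells at 173 (145 to 220), interstitial macrophage-like cells at 138 (57.6 to 235) and AT2-like cells at 86.7 (77.0 to 92.9). Alveolar macrophage-like cells, at 11.3 (4.09 to 18.8), lay below the whole AT2 range and next to B cell-like cells at 10.8. AT1-like cells, the thin gas-exchange epithelium, were too few in NI to enter this order but were high in each library, at 1221 CPM in NI (11 cells, interval 860 to 1683), 1046 in CONV (32 cells, 824 to 1310) and 955 in FLASH (43 cells, 737 to 1217), and the 3 intervals overlap.

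**Figure D1:**
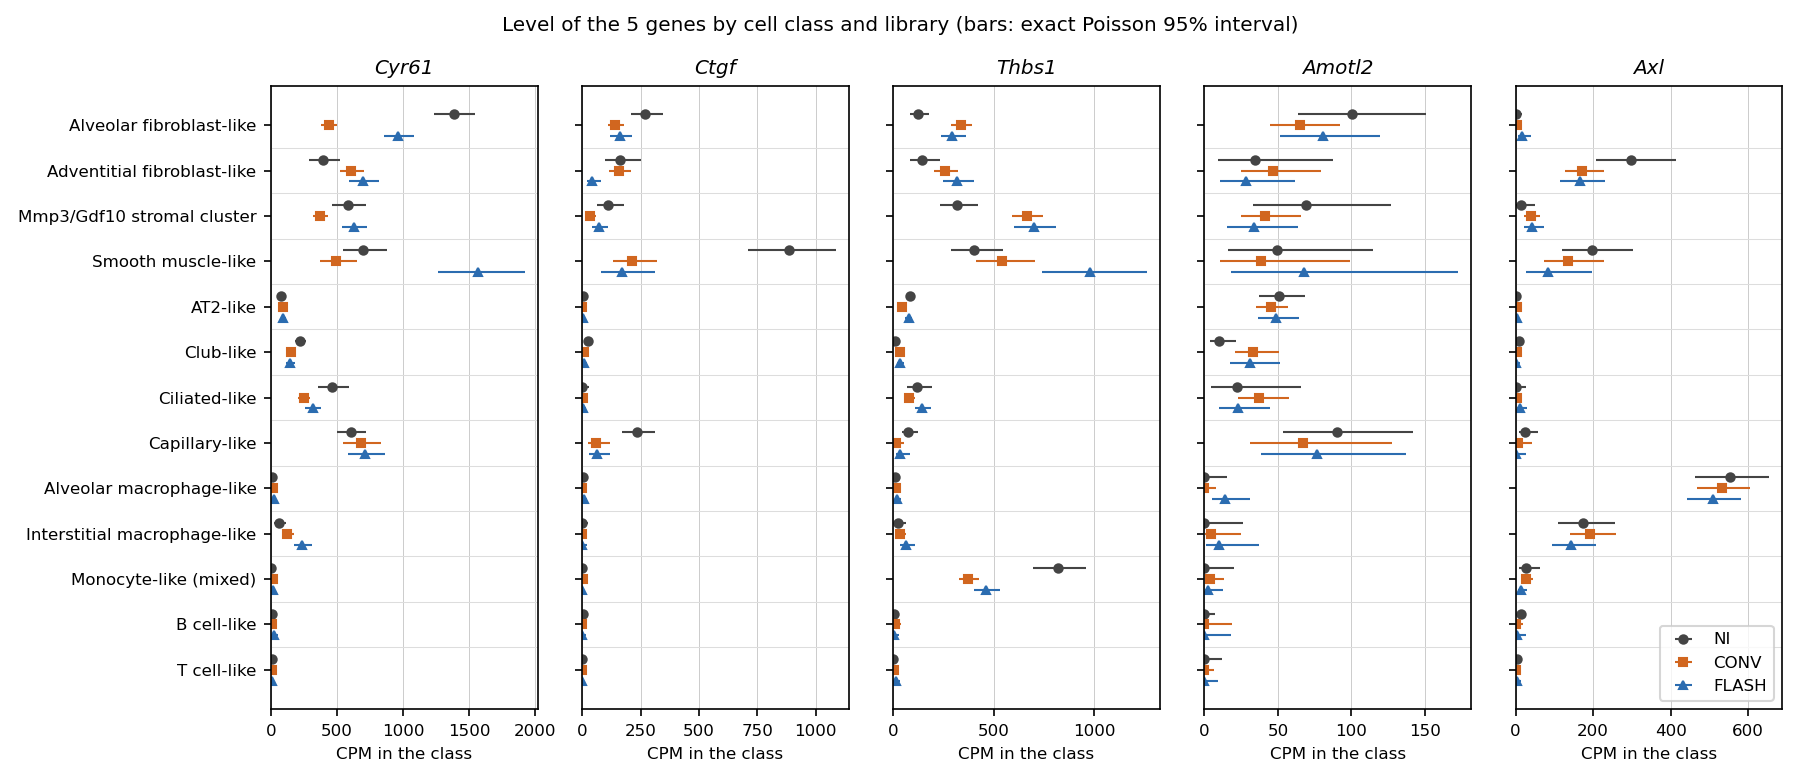
CPM of the 5 genes (x axis, 1 scale per panel) in 13 cell classes (rows) of the NI, CONV and FLASH libraries, with exact Poisson 95% intervals as bars. Cyr61, Ctgf and Thbs1 are highest in stromal rows, Thbs1 also in monocyte-like cells, and Axl is highest in alveolar macrophage-like cells at 509 to 553 CPM.

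In all stromal cells (186, 582 and 489 in NI, CONV and FLASH), Cyr61 stood at 783 CPM in NI (718 to 853), 457 in CONV (422 to 494) and 798 in FLASH (740 to 859). CONV was the low library and its interval did not meet the others, while NI and FLASH overlapped. The ratio was 0.583 for CONV to NI (0.519 to 0.656), 1.02 for FLASH to NI (0.908 to 1.14) and 1.75 for FLASH to CONV (1.57 to 1.95). This one figure averages classes that went different ways. Taken as the mean of each cell's own CPM, FLASH to NI was 0.893, outside the interval above.

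Alveolar fibroblast-like cells, the Tcf21-positive fibroblasts of the alveolar wall, had their lowest value in CONV, as did the Mmp3 and Gdf10 cluster and smooth muscle-like cells described below. Cyr61 was at 1381 CPM in NI (1233 to 1542), 436 in CONV (379 to 498) and 961 in FLASH (853 to 1079), from 316, 214 and 287 UMIs in 72, 233 and 193 cells. The 3 intervals were apart, in the order CONV, FLASH, NI. Ratios were 0.316 for CONV to NI (0.264 to 0.377), 0.696 for FLASH to NI (0.591 to 0.819) and 2.20 for FLASH to CONV (1.84 to 2.64). Cells with a Cyr61 UMI made up 58.3%, 28.8% and 44.0%, and after thinning 37.5% (26.4 to 49.7), 18.5% (13.7 to 24) and 35.4% (28.7 to 42.6). On that scale NI and FLASH overlap and CONV is below both. Cells with at least 10 Cyr61 UMIs were 12.5% of the class in NI, 2.15% in CONV and 3.11% in FLASH, where the median cell had 2850, 1995 and 1384 UMIs of all genes. In each library the tenth of cells with the most Cyr61 held 61.3% to 74.3% of its UMIs, so the level rests on a minority of cells.

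**Figure D2:**
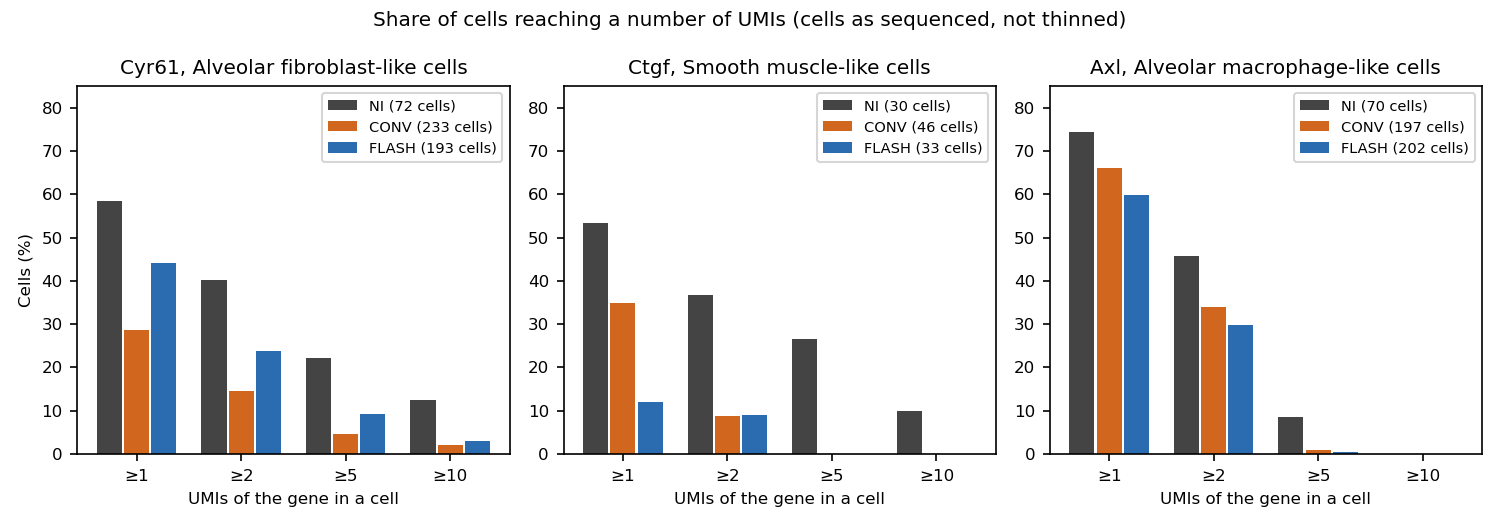
Percent of cells (y axis) with at least 1, 2, 5 or 10 UMIs of the gene (x axis) for Cyr61 in alveolar fibroblast-like, Ctgf in smooth muscle-like and Axl in alveolar macrophage-like cells, as sequenced. The NI library, which had more UMIs per cell, has the highest bar wherever any cell is counted. Ctgf at 5 or more UMIs is seen in 26.7% of NI smooth muscle-like cells and in 0 cells of CONV and FLASH.

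Other stromal classes did not share this order. Adventitial fibroblast-like cells, which sheathe airways and vessels, had Cyr61 at 392 CPM in NI (287 to 523), 608 in CONV (520 to 707) and 696 in FLASH (588 to 818). Here NI was the low library, with ratios of 1.55 (1.11 to 2.20) and 1.78 (1.27 to 2.53), and CONV and FLASH overlapped. The Mmp3 and Gdf10 cluster had 579, 371 and 625 CPM, the order seen in all stromal cells. Smooth muscle-like cells had 698 in NI (545 to 880), 494 in CONV (368 to 649) and 1568 in FLASH (1265 to 1921), with FLASH alone above the others, at 2.25 times NI (1.63 to 3.10) and 3.18 times CONV (2.23 to 4.56). That class held only 30, 46 and 33 cells. In it, immediate early genes were also higher in FLASH than in CONV: of 8 measured, 5 were at least 1.5-fold higher in FLASH than in CONV and 0 lower, with a median log2 ratio of 1.01 against -0.07 over 473 genes, of which 4.44% were higher and 5.92% lower. In alveolar fibroblast-like cells, 0 of 15 immediate early genes were past that fold in either direction between FLASH and CONV, and their median was -0.13. Mesothelial-like cells had Cyr61 at 125, 477 and 146 CPM from 15, 19 and 17 cells.

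Outside the stroma, Cyr61 lay close together across libraries in capillary-like and AT2-like cells and apart in airway cells and interstitial macrophage-like cells. Capillary-like endothelial cells, a cluster whose leading genes also include artery and vein markers, had 604 CPM in NI (501 to 722), 681 in CONV (548 to 836) and 712 in FLASH (581 to 865), all overlapping. AT2-like cells had 77.0, 90.1 and 92.9 CPM, with ratios of 1.17 (0.871 to 1.59) and 1.21 (0.878 to 1.67) to NI. Airway cells had lower levels in both irradiated libraries: ciliated-like cells had 462 CPM in NI, 246 in CONV and 314 in FLASH, ratios of 0.531 (0.390 to 0.731) and 0.680 (0.494 to 0.943), and club-like cells had 220, 154 and 145, ratios of 0.698 (0.532 to 0.912) and 0.657 (0.485 to 0.883). Interstitial macrophage-like cells had 57.6 CPM in NI (24.9 to 113), 121 in CONV (79.6 to 176) and 235 in FLASH (172 to 313) from 8, 27 and 46 UMIs. The FLASH to NI ratio there was 4.08 (1.91 to 10.0), while the share of cells with a UMI was 17.2%, 10.2% and 19.1% at median depths of 4465, 2384 and 1954 UMIs. After thinning the shares were 6.90% (0.846 to 22.8), 6.82% (2.54 to 14.3) and 12.4% (6.33 to 21.0), with overlapping intervals.

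Ctgf encodes CCN2, the connective tissue growth factor long associated with fibrosis. It was found in a narrower set of cells than Cyr61. Smooth muscle-like cells led at a mean of 422 CPM (169 to 885), followed by alveolar fibroblast-like cells at 191 (143 to 271), adventitial fibroblast-like cells at 121 (42.6 to 162), capillary-like cells at 119 (59.8 to 235) and the Mmp3 and Gdf10 cluster at 72.0 (34.6 to 110). Ranges of these 5 neighbours overlapped in turn. Club-like cells came next at 14.1, and the remaining 11 of the 17 ordered classes were at 3.72 or below, AT2-like cells (1.59) and alveolar macrophage-like cells among them.

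Both irradiated libraries had less Ctgf than NI in stromal cells. Levels were 282 CPM in NI (244 to 326), 111 in CONV (94.0 to 130) and 99.2 in FLASH (79.4 to 122), so the irradiated libraries overlapped each other and neither met NI. The ratio to NI was 0.392 (0.315 to 0.488) for CONV and 0.351 (0.269 to 0.455) for FLASH, and FLASH to CONV was 0.895 (0.680 to 1.17). Smooth muscle-like cells, highest in Ctgf, made up 16.1%, 7.9% and 6.75% of stromal cells, so these summed ratios mix class shares with level. Over the alternatives, which included the class mix, they ran from 0.383 to 0.486 for CONV and from 0.334 to 0.445 for FLASH to NI. Cells with a Ctgf UMI made up 34.4%, 17.7% and 13.3%, and after thinning 16.1% (11.2 to 22.2), 9.79% (7.50 to 12.5) and 7.80% (5.58 to 10.6).

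Smooth muscle-like cells showed the widest gap in Ctgf, from 885 CPM in NI (711 to 1087) to 213 in CONV (133 to 322) and 169 in FLASH (80.8 to 310). The UMIs behind these were 90, 22 and 10, and ratios to NI were 0.241 (0.144 to 0.387) and 0.191 (0.0884 to 0.367). In the same cells Cyr61 in FLASH was above NI, so these related genes went opposite ways there. Immediate early genes were also lower than NI in this class, 12 of 14 measured in CONV and 9 of 14 in FLASH, with 0 and 1 higher and median log2 ratios of -1.45 and -0.70. Over all genes measured in the class the medians were 0.04 and 0.02, with 8.8% higher and 11.8% lower in CONV and 5.3% higher and 11% lower in FLASH. Whether the handling of the tissue that these genes respond to has a part in the Ctgf value was not tested. Of 10 serum response factor targets measured in smooth muscle-like cells, 1 was higher and 0 lower in each irradiated library against NI. That list includes the contractile genes Acta2, Tagln, Cnn1 and Myl9, which are also markers that named the class, so their level there was partly fixed by the naming.

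The lower Ctgf was also seen in alveolar fibroblast-like cells, at 271 CPM in NI (208 to 347), 143 in CONV (111 to 180) and 161 in FLASH (119 to 213), ratios of 0.526 (0.368 to 0.753) and 0.593 (0.398 to 0.879). Adventitial fibroblast-like cells split the irradiated libraries: 162 CPM in NI (97.5 to 253) and 157 in CONV (114 to 211) overlapped, and FLASH lay lower at 42.6 (19.5 to 80.9), a FLASH to CONV ratio of 0.271 (0.116 to 0.562) from 9 against 44 UMIs. Endothelial cells had 189 CPM in NI (140 to 250), 45.7 in CONV (21.9 to 84.1) and 45.5 in FLASH (20.8 to 86.4), ratios of 0.242 (0.109 to 0.483) and 0.240 (0.104 to 0.495). In capillary-like cells of NI, the tenth of cells with the most Ctgf held 93.6% of its 47 UMIs, and the share of cells with a UMI was 13.5%, 13.8% and 7.32%, so the high NI level was that of a few cells.

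**Figure D3:**
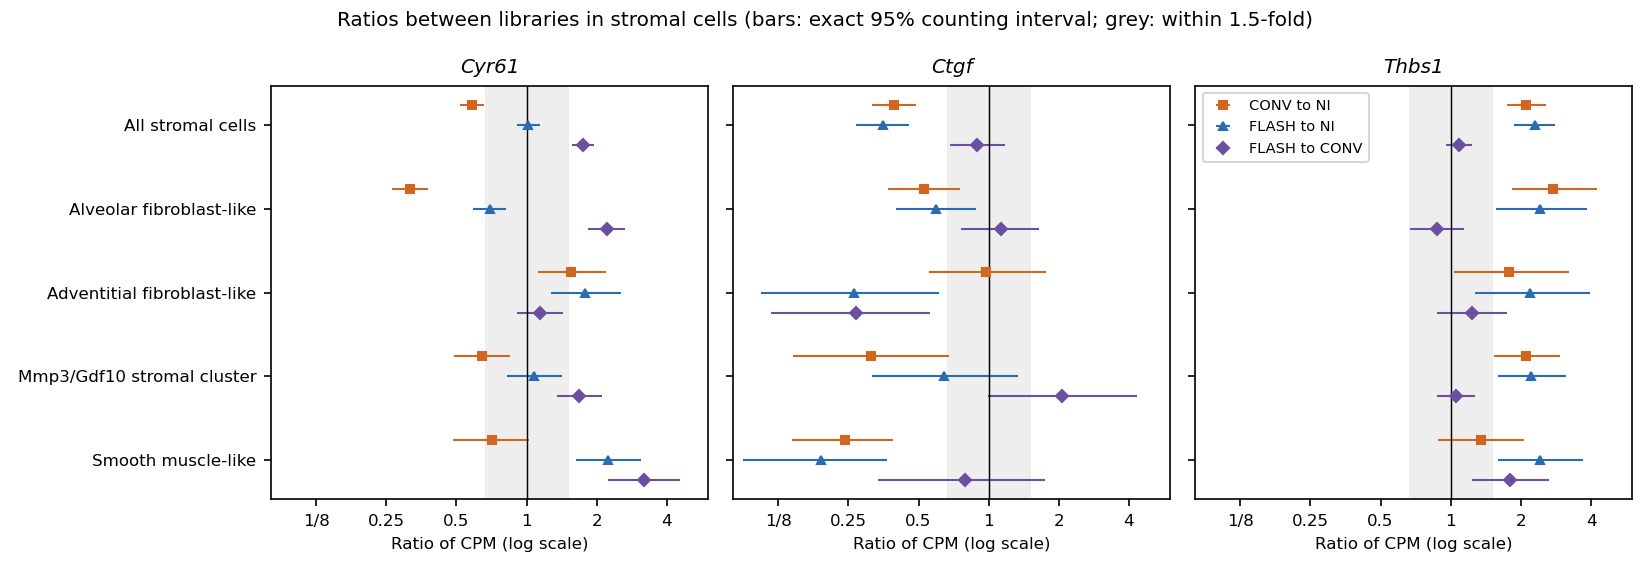
Ratios of CPM on a log axis for Cyr61, Ctgf and Thbs1 between libraries (colours) in all stromal cells and 4 stromal classes, with exact 95% counting intervals and the range within 1.5-fold in grey. Ctgf ratios to NI are below 1 in each row, Thbs1 ratios to NI above 1, and Cyr61 ratios lie on both sides.

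Thbs1 encodes thrombospondin 1, a trimeric glycoprotein that activates latent TGF-beta and binds CD47 and CD36. It was expressed in both stroma and monocytes. By mean level, smooth muscle-like cells (641 CPM, 403 to 978), the Mmp3 and Gdf10 cluster (561, 317 to 700) and the monocyte-like cluster (552, 374 to 820) came first with overlapping ranges. Alveolar fibroblast-like (251, 122 to 336) and adventitial fibroblast-like cells (240, 145 to 317) followed and overlapped each other. Ciliated-like cells were at 115, AT2-like cells at 66.6 and capillary-like cells at 41.6. A small unnamed cluster led by Prg4 and Cd5l, with complement C1q genes and only 2, 8 and 18 cells, stood above all of these at 2338 CPM in NI (1482 to 3508), 1273 in CONV (976 to 1632) and 1907 in FLASH (1625 to 2225), with a Thbs1 UMI in 100%, 100% and 94.4% of its cells.

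Thbs1 went the other way to Ctgf in stroma. It was at 199 CPM in NI (167 to 236), 420 in CONV (386 to 455) and 456 in FLASH (412 to 503), with NI below both irradiated libraries, which overlapped. Ratios were 2.11 (1.74 to 2.56) and 2.29 (1.88 to 2.80) to NI, and 1.09 (0.954 to 1.24) for FLASH to CONV. Each of the 4 larger stromal classes had its lowest value in NI. Alveolar fibroblast-like cells had 122 CPM in NI (81.3 to 177), 336 in CONV (287 to 391) and 295 in FLASH (236 to 363), ratios of 2.75 (1.83 to 4.26) and 2.41 (1.56 to 3.83). The Mmp3 and Gdf10 cluster had 317, 666 and 700 CPM, ratios of 2.10 (1.54 to 2.93) and 2.21 (1.59 to 3.12). Adventitial fibroblast-like cells had 145, 257 and 317, ratios of 1.78 (1.04 to 3.22) and 2.19 (1.27 to 3.98). In smooth muscle-like cells, 403 CPM in NI (289 to 547) and 542 in CONV (409 to 704) overlapped and FLASH was at 978 (742 to 1264), 2.43 times NI (1.60 to 3.71). The shares of cells were less far apart: after thinning, 17.7% of stromal cells in NI (12.5 to 24), 23.2% in CONV (19.8 to 26.8) and 26.3% in FLASH (22.4 to 30.4) had a Thbs1 UMI, and the intervals of NI and CONV overlap, as do those of NI and FLASH.

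AT2-like cells, the surfactant-making epithelium, had Thbs1 at 82.6 CPM in NI (64.8 to 104), 41.3 in CONV (31.8 to 52.6) and 76.0 in FLASH (60.4 to 94.5). CONV was the low library, at 0.499 of NI (0.352 to 0.707), and FLASH was 1.84 times CONV (1.31 to 2.60). Immediate early genes showed the same order there, 9 of 17 measured lower and 0 higher in CONV to NI (7.16% and 8.7% of all genes measured in AT2-like cells) and 4 of 17 higher and 0 lower in FLASH to CONV (2.57% and 4.05%). In FLASH to NI, 2 of 17 were lower and 0 higher (7.8% and 6.74%). Their median log2 ratios were -0.59, 0.36 and -0.26 in these comparisons, beside -0.01, -0.02 and -0.04 for all genes. Ciliated-like cells had 119, 80.0 and 144 CPM, with overlapping intervals for NI and either irradiated library.

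**Figure D4:**
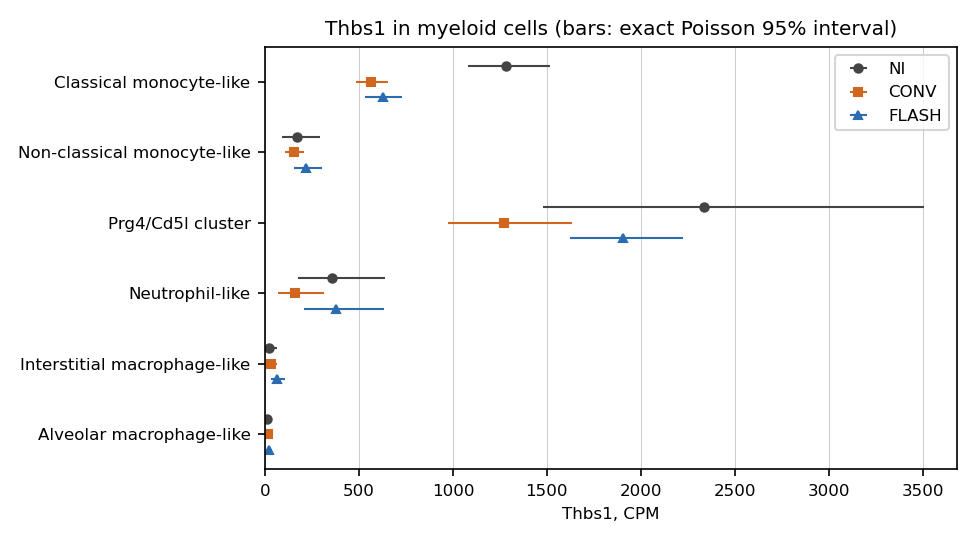
Thbs1 CPM (x axis) in myeloid groups (rows) by library with exact Poisson 95% intervals; the monocyte-like cluster is shown as its classical-like and non-classical-like parts. Classical monocyte-like cells of NI sit at 1284 CPM against 564 in CONV and 627 in FLASH, and the non-classical intervals overlap.

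In the monocyte-like cluster (61, 223 and 221 cells, named non-classical from markers such as Treml4 and Ace), Thbs1 was at 820 CPM in NI (695 to 962), 374 in CONV (325 to 428) and 463 in FLASH (401 to 532), ratios of 0.456 (0.368 to 0.566) and 0.565 (0.455 to 0.702) to NI. With mitochondrial limits of 5% and 20% the CONV ratio was 0.739 and 0.778 and the FLASH ratio 0.693 and 0.681, none of them past 1.5-fold. This cluster holds 2 kinds of monocyte. At a finer cluster resolution of 2 it split into a classical monocyte-like part (27, 114 and 117 cells, Ly6c2 at 2327, 788 and 893 CPM) and a non-classical part (34, 109 and 104 cells, Ly6c2 at 26.1, 89.6 and 52.0 CPM). Thbs1 lay mostly in the classical part, at 1284 CPM in NI (1079 to 1517), 564 in CONV (482 to 656) and 627 in FLASH (534 to 731). NI was the high library there, with ratios of 0.439 (0.349 to 0.554) and 0.488 (0.386 to 0.617), and without the NI cell with the most Thbs1, which had 24 of 138 UMIs, the NI level was 1098. The non-classical part had 170, 152 and 219 CPM from 13, 39 and 38 UMIs, all intervals overlapping, with FLASH to NI at 1.29 (0.674 to 2.65). The part with the lower Thbs1 in the irradiated libraries also had lower Ly6c2 there, and whether the 2 parts hold the same cell states in each library was not tested. Over all myeloid cells Thbs1 was at 210 CPM in NI, 191 in CONV and 306 in FLASH, a figure that depends on the mix of classes: with each class weighted alike, the ratios to NI were 0.485 for CONV and 0.625 for FLASH.

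Amotl2, the angiomotin-like 2 gene, encodes a scaffold that holds YAP at junctions and is itself a YAP output. It was detected at a low level in non-leukocyte classes, whose means over libraries ran from 24.7 CPM in club-like cells to 82.0 in alveolar fibroblast-like cells among the ordered classes. Alveolar fibroblast-like cells led (65.2 to 100.5 over the libraries), before capillary-like cells at 78.0 (67.3 to 89.9), smooth muscle-like cells 51.8 (38.7 to 67.4), AT2-like cells 48.3 (45.1 to 50.9) and the Mmp3 and Gdf10 cluster 48.0 (33.7 to 68.9). The capillary-like range lay inside that of alveolar fibroblast-like cells. Smooth muscle-like cells and the Mmp3 and Gdf10 cluster met both ranges at their upper ends, and ranges of the last 3 overlapped. AT1-like cells had 231, 193 and 103 CPM in NI, CONV and FLASH from 7, 14 and 7 UMIs. B cell-, NK cell- and T cell-like cells had 0 Amotl2 UMIs in each library.

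In stroma and in AT2-like cells the intervals of the 3 libraries overlapped for Amotl2. Stromal cells had 72.8 CPM in NI (53.9 to 96.3), 62.6 in CONV (50.2 to 77.2) and 60.4 in FLASH (45.2 to 79.0), ratios of 0.860 (0.599 to 1.25) and 0.829 (0.552 to 1.25). AT2-like cells had 50.9, 45.1 and 48.8 CPM, ratios of 0.885 (0.600 to 1.32) and 0.958 (0.631 to 1.46). These intervals leave room for a decrease of about the fold used here, so a decrease of that size cannot be told from none at this depth. An increase of 1.5-fold lies outside each of them, as far as counting error goes. Smaller classes gave wider values. Mesothelial-like cells had 87.7 CPM in NI (35.3 to 181), 245 in CONV (149 to 378) and 243 in FLASH (117 to 447) from 7, 20 and 10 UMIs. Club-like cells had 9.79, 33.3 and 31.0 CPM from 6, 21 and 15 UMIs, with a CONV to NI ratio of 3.4 (1.33 to 10.3).

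Axl encodes a receptor of the TAM family, which binds the ligand Gas6 and the phosphatidylserine of dying cells. Its map differed from that of the other 4 genes. Alveolar macrophage-like cells had 553 CPM in NI (463 to 654), 533 in CONV (468 to 604) and 509 in FLASH (443 to 581), from 135, 246 and 216 UMIs, and the 3 intervals overlapped. Ratios to NI were 0.964 (0.778 to 1.20) and 0.921 (0.739 to 1.15). Cells with an Axl UMI made up 74.3%, 66.0% and 59.9% as sequenced, and after thinning 35.7%, 35.5% and 35.1%, so the difference in the first set of shares was not seen once cells were set to 1 depth.

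Adventitial fibroblast-like cells came next with a mean of 212 CPM (166 to 298), then interstitial macrophage-like cells at 169 (143 to 192) and smooth muscle-like cells at 139 (84.3 to 197), with ranges that overlap in turn. Alveolar fibroblast-like cells, first for Cyr61, had a mean of only 6.94 CPM of Axl, from 0, 2 and 5 UMIs. The adventitial level was 298 CPM in NI (208 to 415), 172 in CONV (127 to 228) and 166 in FLASH (115 to 230), ratios of 0.576 (0.365 to 0.917) and 0.556 (0.338 to 0.914), with NI and each irradiated library overlapping in their own intervals. Interstitial macrophage-like cells had 173, 192 and 143 CPM, all overlapping.

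The Axl ligand Gas6 was higher in both irradiated libraries. In stromal cells it stood at 685 CPM in NI, 1383 in CONV and 1281 in FLASH, ratios of 2.02 and 1.87. Alveolar fibroblast-like cells had 302, 711 and 740 CPM. Epithelial cells had 165, 290 and 315 CPM, a sum over classes whose shares differed, with club-like cells at 16.2%, 9.49% and 7.94%. Endothelial cells had 193, 905 and 819 CPM, but their mix differed: lymphatic-like cells, rich in Gas6, were 1.09%, 20.7% and 11.4% of them. Within capillary-like cells alone, Gas6 was at 245 CPM in NI (181 to 324), 598 in CONV (474 to 745) and 796 in FLASH (657 to 957), ratios of 2.44 (1.69 to 3.56) and 3.25 (2.31 to 4.65). Of the other genes of the TAM list, Pros1, a second ligand, was at 180, 202 and 177 CPM in stroma, and Mertk, the macrophage receptor, was at 50.7, 74.7 and 74.3 CPM in myeloid cells with ratios of 1.47 and 1.47. Tyro3 had at most 4 UMIs in any library in stroma.

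Set against all genes, the counts of members past 1.5-fold were as follows, where only genes with at least 50 UMIs summed over the compared libraries were counted and the members were picked with these ratios known. In stroma, CONV to NI, 1 of 5 members was higher (Thbs1) and 2 were lower (Cyr61, Ctgf), beside 7.83% of 5543 genes higher and 7.61% lower. FLASH to NI had 1 of 5 higher (Thbs1) and 1 lower (Ctgf), beside 6.9% and 7.92% of genes. FLASH to CONV had 1 of 5 higher (Cyr61) and 0 lower, beside 3.01% and 4.02%. Alveolar fibroblast-like cells had 1 of 4 measured members higher (Thbs1) and 3 lower in CONV to NI (7.89% and 7.93% of genes), 1 of 3 higher and 1 lower in FLASH to NI (6.75% and 8.39%) and 1 of 4 higher and 0 lower in FLASH to CONV (3.42% and 4.25%). The 3 lower in CONV were Cyr61, Ctgf and Amotl2, the last at 0.648 with an interval of 0.368 to 1.16.

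Other compartments had fewer members to count. Epithelial cells measured 3 members, with 0 past the fold in CONV to NI (15% of genes higher, 4.49% lower) and in FLASH to NI (15.8% and 4.31%), and Thbs1 higher in FLASH to CONV (2.96% and 2.85%), at 1.63 (1.28 to 2.07). The median over all genes was itself shifted by 0.13 and 0.14 on the log2 scale there against NI, so epithelial ratios to NI are to be read against that. Epithelial Ctgf, at 15.7, 4.26 and 6.60 CPM from 26, 12 and 13 UMIs, was too low to count. From 20 UMIs on it counts as lower in both comparisons with NI, ratios of 0.272 (0.125 to 0.559) and 0.421 (0.199 to 0.850). The NI UMIs lay in 8 cells, and the cell with the most held 38.5% of them. Club-like cells, at a mean of 14.1 CPM of Ctgf, made up 16.2%, 9.49% and 7.94% of epithelial cells, so these ratios mix class shares with level. Endothelial cells measured 2 members against NI, Cyr61 and Ctgf, of which Ctgf was lower in both comparisons and none higher (13.3% of genes higher and 17.1% lower in CONV, 10.0% and 15.8% in FLASH), and 1 member in FLASH to CONV, which was not past the fold (5.85% and 5.64%). Myeloid cells measured 3 members, with Cyr61 higher in CONV (8.96% and 7.18%) and in FLASH (9.17% and 7.98%) against NI, and Cyr61 and Thbs1 higher in FLASH to CONV (2.94% and 3.62%).

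Genes that share a pathway with the 5 were read from lists, by counts and medians only. Their stromal values are sums that mix class shares with level. Smooth muscle-like cells made up 16.1%, 7.9% and 6.75% of stromal cells in NI, CONV and FLASH, and mesothelial-like cells 8.06%, 3.26% and 3.48%. Of 30 other YAP and TEAD targets, 19 were measured in stroma in CONV to NI, 1 higher and 4 lower, with a median log2 ratio of -0.09 beside -0.04 for all genes; in FLASH to NI it was 1 higher and 2 lower of 16, median -0.22, and in FLASH to CONV 1 higher and 0 lower of 18, median 0.01. Lower in both irradiated libraries was Igfbp3, a secreted binder of insulin-like growth factors, at 590, 295 and 312 CPM. So was Ccdc80, a matrix protein gene, at 229, 122 and 103 CPM. Ptpn14, a phosphatase gene whose product binds YAP, was at 37.2, 18.7 and 16.0 CPM, from 25, 26 and 14 UMIs, and was too low to count in FLASH to NI. Asap1 was higher at 56.5, 101 and 109 CPM, and the abundant targets Fstl1 (351, 329 and 285 CPM) and Tgm2 (263, 263 and 246 CPM) stayed within the fold. Of all stromal genes, 7.83% were higher and 7.61% lower in CONV to NI. The shares were 6.9% and 7.92% in FLASH to NI, and 3.01% and 4.02% in FLASH to CONV.

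**Figure D5:**
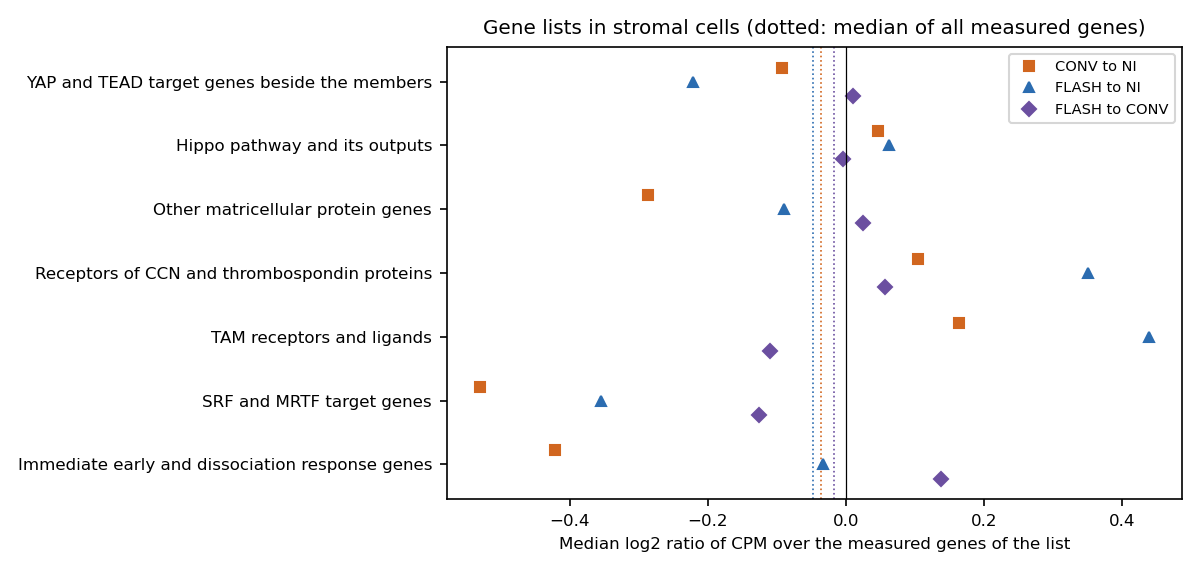
Median log2 ratio of CPM (x axis) over the measured genes of 7 lists (rows) in stromal cells for each pair of libraries, with the median of all measured genes as dotted lines. Serum response factor targets lie lowest in CONV to NI at -0.53, and the FLASH to CONV medians of all lists lie between -0.13 and 0.14.

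Hippo pathway genes are the kinases, adaptors and DNA-binding partners upstream of the 5. In stroma, 1 was higher and 0 lower of 16 measured in CONV to NI (7.83% and 7.61% of all genes). FLASH to NI had 3 higher and 1 lower of 12 (6.9% and 7.92%), and FLASH to CONV 2 higher and 0 lower of 17 (3.01% and 4.02%). Their median log2 ratios were 0.05, 0.06 and -0.004, beside -0.04, -0.05 and -0.02 for all genes. Tead1, which encodes a TEAD factor, was at 29.7 CPM in NI, 64.8 in CONV and 51.3 in FLASH, from 20, 90 and 45 UMIs. Its ratios to NI were 2.18 (1.33 to 3.74) and 1.73 (0.998 to 3.08), the second with an interval that includes 1. Wwtr1, which encodes TAZ, was at 40.1, 59.7 and 60.4 CPM, from 27, 83 and 53 UMIs. Its ratios of 1.49 (0.954 to 2.39) and 1.51 (0.930 to 2.49) have intervals that include 1. Map4k4, a kinase that can act on Lats kinases, was at 22.3, 29.5 and 50.1 CPM and Taok1, another upstream kinase, at 72.8, 51.1 and 42.2 CPM. Their ratio intervals leave out 1 in FLASH to NI (1.23 to 4.35 and 0.367 to 0.906). In CONV to NI they include it (0.717 to 2.57 and 0.481 to 1.03). Vgll3 and Vgll4, TEAD-binding cofactors, were at 68.4 to 69.5 CPM and 55.0 to 58.1 CPM.

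Among 22 other matricellular genes, 12 were measured in stroma in CONV to NI with 0 higher and 4 lower (7.83% and 7.61% of all genes). FLASH to NI had 0 higher and 3 lower of 11 (6.9% and 7.92%), and FLASH to CONV 0 higher and 1 lower of 10 (3.01% and 4.02%). Their median log2 ratios were -0.29, -0.09 and 0.02, beside -0.04, -0.05 and -0.02 for all genes. Postn, which encodes periostin, was at 98.1, 20.9 and 22.8 CPM, and Spon2 at 361, 134 and 78.6 CPM. These and the values below are summed over stromal cells, so class shares and level cannot be told apart in them. Nov, the CCN3 gene and a relative of Cyr61 and Ctgf, was at 44.6, 18.7 and 19.4 CPM, and Wisp2, the CCN5 gene, at 287, 295 and 366 CPM. Sparc, the most counted gene of the list, was at 2353, 1983 and 2033 CPM. Receptors for these proteins had median log2 ratios of 0.10 in CONV to NI and 0.35 in FLASH to NI. Beside the same shares of all genes, 2 were higher and 0 lower of 8 in CONV to NI and of 7 in FLASH to NI. They were Itgb5, an integrin chain, at 75.8, 141 and 170 CPM and Lrp6, a Wnt co-receptor, at 34.2, 56.9 and 59.3 CPM. Cd47, the thrombospondin receptor, was at 398, 386 and 425 CPM.

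Serum response factor targets had 0 higher and 5 lower of 11 measured in stroma in CONV to NI (7.83% and 7.61% of all genes). FLASH to NI again had 0 and 5 of 11 (6.9% and 7.92%). Acta2, the smooth muscle actin gene, was at 2268, 1260 and 1305 CPM and Cnn1, a calponin gene, at 294, 127 and 103 CPM. Smooth muscle-like cells made up 16.1%, 7.9% and 6.75% of stromal cells, and fewer such cells and less RNA per cell cannot be told apart in the summed stromal value. Within smooth muscle-like cells none of 10 was lower. Acta2, Tagln, Cnn1 and Myl9 of this list are also markers that named the class, so that count does not bear on the question. Immediate early genes in stroma had 0 higher and 7 lower of 17 in CONV to NI (median -0.42), beside the same shares of all genes. In FLASH to NI it was 2 higher and 4 lower of 17 (median -0.03). In FLASH to CONV it was 3 higher and 0 lower of 17 (median 0.14), beside 3.01% and 4.02% of genes. Fos was at 2310, 1385 and 1515 CPM, and Dusp1, a phosphatase gene induced by stress, at 1036, 623 and 1012 CPM. CONV had the lowest level of both, as it did for Cyr61 in stroma. Classes differed in this. In alveolar fibroblast-like cells, with Cyr61 in CONV at 0.316 of NI, 3 of 15 immediate early genes were higher and 3 lower (7.89% and 7.93% of genes), median 0.02. In adventitial fibroblast-like cells, with Cyr61 at 1.55, the CONV to NI median was -0.26 beside 0.04 for all genes. In capillary-like cells, where Cyr61 intervals overlapped, it was -0.65 beside -0.05. The part of this response in the Cyr61 and Ctgf values was not tested.

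The 5 genes were compared across 57 points, each a class in 1 library with at least 20 cells, on log2(CPM + 1). They include the NI points of the thymocyte-like and the Pbk and Rrm2 clusters. These points share libraries, depth and cells, so the correlations are descriptions. Cyr61 was most like Ptrf, Timp3, Gstm2 and Nfib (r of 0.90, 0.90, 0.89 and 0.89 over the 57 points), and Ctgf most like Syde1, Igfbp7, Htra1 and Pam (0.88, 0.87, 0.86 and 0.86). Thbs1 had no gene as close, with Rbpms, Ifitm3, Nupr1 and Sqrdl at 0.75 to 0.73. Amotl2 was most like Npdc1, Rbfox2, Parva and Bsg (0.90 to 0.86) and Axl most like Creb5, Sulf2, Sh3pxd2b and Rab7b (0.83 to 0.74). Between members, Cyr61 had r of 0.85 with Amotl2, 0.78 with Ctgf, 0.55 with Thbs1 and 0.18 with Axl. Over the 55 points left without those 2 NI clusters, these 4 values were 0.85, 0.77, 0.54 and 0.16, and of the genes named above only Pam, at 0.86, was no longer among the 4 closest.

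Within single stromal cells thinned to 1000 UMIs, cells with a Cyr61 UMI also had a Thbs1 UMI in 32.7% in NI (20.3 to 47.1), 31.0% in CONV (22.6 to 40.4) and 30.8% in FLASH (23.6 to 38.6). Cells without Cyr61 had one in 11.9% (6.98 to 18.7), 21.3% (17.7 to 25.3) and 24.2% (19.7 to 29.2), so the intervals were apart in NI and overlapped in CONV and FLASH. These shares pool stromal classes that differ in both genes. For Ctgf the shares were 21.2%, 16.8% and 10.3% with Cyr61 and 14.2%, 8.1% and 6.65% without. Within alveolar fibroblast-like cells of FLASH, Thbs1 was found in 22.1% of cells with and 23.4% of cells without Cyr61, so the 2 genes were not found together more often there.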

How the data were processed

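The authors deposited UMI counts per gene and cell for 3 libraries (10x Chromium 3′ v2; Cell Ranger 2.0 and mm10, per the submitters' processing notes); filters before deposit and strand use in counting are not given in the sources used here. Cells with under 200 genes or over 10% mitochondrial UMIs were left out, as were the cells ranking highest in a doublet score, at 0.8% per 1000 barcodes (114 cells; the automatic cutoff marked 44). Counts scaled to 10000 per cell, 2000 variable genes, 30 components and 15 neighbours gave Leiden clusters at resolution 1 (scanpy 1.11.5). Names needed 3 detected markers and at least 1 marker among the 10 leading genes, and leading genes of other types did not bar a name. The cluster named type 2 dendritic also led with genes of other dendritic cells and is not compared. Names rebuilt this way may differ from the study's.

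CPM are summed UMIs of the gene over all UMIs of those cells. Ratios have exact conditional binomial intervals and shares Clopper-Pearson intervals, at 95%. With 1 library per group no p-value is given. Calls mean a ratio of at least 1.5 either way among genes with at least 50 UMIs. Named beside the members were the 4 most counted genes of a list and list genes past the fold whose interval leaves out 1, described by example; and the 4 genes closest in pattern (at least 200 UMIs). Code was tested on simulated counts. Members and lists were chosen with earlier results of these data known. Alternatives covered filters, doublets, scaling, cluster resolution, cell averaging and class mix.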

Additional observations from a re-analysis of the deposited data

Results flagged for a closer look

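Ratios of Cyr61 and Thbs1 to NI that lay on opposite sides of 1 in different cell classes, past 1.5-fold with an interval that leaves out 1, are listed here; the difference between classes was not tested. For Cyr61 in CONV to NI, adventitial fibroblast-like cells were at 1.55, against 0.316 in alveolar fibroblast-like cells, 0.641 in the Mmp3 and Gdf10 cluster and 0.531 in ciliated-like cells. For Cyr61 in FLASH to NI, adventitial fibroblast-like cells were at 1.78, smooth muscle-like cells at 2.25 and interstitial macrophage-like cells at 4.08, against 0.657 in club-like cells. For Thbs1 in CONV to NI, adventitial fibroblast-like cells were at 1.78, alveolar fibroblast-like cells at 2.75 and the Mmp3 and Gdf10 cluster at 2.10, against 0.499 in AT2-like cells and 0.456 in the mixed monocyte-like cluster, which was at 0.739 and 0.778 with mitochondrial limits of 5% and 20% and whose non-classical part was at 0.896. For Thbs1 in FLASH to NI, the same 3 stromal classes were at 2.19, 2.41 and 2.21 and smooth muscle-like cells at 2.43, against 0.565 in the mixed monocyte-like cluster, whose non-classical part was at 1.29.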

How the results depend on the processing

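No paired analysis was possible because there is 1 library per group. Of the recomputed member ratios, 225 main and 335 other values stayed inside their interval, 6 main and 9 other ones moved and 1 reversed, over 11 alternatives. As the mean of each cell's CPM, Cyr61 FLASH to NI in stroma was 0.893, and Thbs1 in myeloid cells was 0.728 for CONV and 1.09 for FLASH to NI. With classes weighted alike, the myeloid Thbs1 ratios were 0.485, 0.625 and, for FLASH to CONV, 1.29. Non-classical Thbs1 reversed to 1.29 for FLASH to NI at cluster resolution 2, since the cluster split; its CONV to NI ratio was 0.739 and 0.778 at mitochondrial limits of 5% and 20%, and the cause was not tested. Counting genes from 20 UMIs, where fewer counts widen every ratio, the shares of stromal genes past the fold were 12.1% lower in CONV to NI, 10.6% higher and 12.9% lower in FLASH to NI, and 6.62% higher and 7.8% lower in FLASH to CONV; the stromal FLASH to NI median log2 ratio of the TAM list was then -0.03 in place of 0.44. Stromal ratios to NI ranged over the alternatives from 0.33 to 0.49 for Ctgf and from 1.92 to 2.56 for Thbs1. Every share given in the report was larger at 20 UMIs. Those higher in FLASH to CONV were 9.4% in alveolar fibroblast-like, 10.8% in smooth muscle-like, 5.93% in AT2-like, 6.53% in epithelial, 6.03% in myeloid and 11.2% in endothelial cells. Amotl2 rested on 49, 87 and 53 UMIs in stroma. The correlations without 2 NI clusters and the values per endothelial class were chosen after seeing the data.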

Other observations

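Edn1, a YAP target that encodes the vasoconstrictor endothelin 1, was at 290 CPM in NI, 119 in CONV and 303 in FLASH in endothelial cells, from 75, 26 and 60 UMIs. CONV was the low library, at 0.41 of NI, and FLASH was 2.55 times CONV. The mix of these cells differed, with capillary-like cells at 80.4%, 63.0% and 71.9% and lymphatic-like cells at 1.09%, 20.7% and 11.4%. Within capillary-like cells Edn1 was at 370 CPM in NI (290 to 464), 194 in CONV (127 to 285) and 419 in FLASH (320 to 539), ratios of 0.526 (0.323 to 0.833) for CONV to NI and 2.16 (1.34 to 3.56) for FLASH to CONV. Edn1 is itself on the artery and vein marker list used here, and leading genes of this cluster include such markers. A differing vessel mix within the cluster therefore cannot be told apart from level. The scavenger receptor gene Cd36, whose product binds thrombospondin 1, was at 1159 CPM in NI, 425 in CONV and 597 in FLASH in all endothelial cells. Within capillary-like cells it was at 1014, 538 and 559 CPM, ratios of 0.531 (0.400 to 0.698) and 0.551 (0.420 to 0.717). Epithelial cells had 384, 373 and 411 CPM. F3, a YAP target that encodes tissue factor, was at 63.8, 87.3 and 115 CPM in epithelial cells, in the order NI, CONV, FLASH. Club-like cells made up 16.2%, 9.49% and 7.94% of these cells, so class shares and level cannot be told apart in this sum.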
